A study of Mus musculus with 8 samples.

Results

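The 32 genes described here encode proteins of the mature neutrophil: contents of its granules, the calprotectin subunits of its cytosol, parts of its oxidase, receptors on its surface, and mediators and regulators of inflammation. They were chosen by name, from the symbols on the array. All 32 were found among the 36081 distinct names there, by 36 probes, and all 32 were among the 23231 features tested, a set limited to names with a probe that 2 or more of the 8 arrays measured clearly over background. That filter can be passed through the Gr arrays alone. Clec5a, for example, was well above background on the 4 Gr arrays and on no KSL array.

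Neutrophils build their granules in sequence as they mature in the bone marrow. Primary granules form first, at the promyelocyte stage, secondary (specific) granules follow at the myelocyte and metamyelocyte stages, and gelatinase-rich tertiary granules come last, together with the chemoattractant receptors, the integrins and the full oxidase of the mature cell. Transcription factors of the C/EBP family, and PU.1 of the ETS family, are known to act on many of these genes.

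The bone marrow was that of 6-week-old mice, and 8 arrays formed 4 groups of 2. Stem and progenitor cells (KSL, lineage negative cells that carry c-Kit and Sca-1) and granulocytes (Gr: Gr-1 positive, Mac-1 positive) were sorted by flow cytometry, with no treatment, from controls and from Vav-Etv2 mice, which carry an Etv2 transgene (Etv2 Tg) and a Vav-iCre transgene that switches it on. The labels do not say which transgene, if any, the controls carry. Etv2 is an ETS factor needed for blood and vessel precursors in the embryo, and the Vav promoter is active across blood cells, so the transgene is not limited to 1 lineage. The mice had a mixed background (B6/CBA and others). The labels do not say whether an array holds 1 animal or a pool, so the p-values measure the spread between these samples, which may be technical.

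A level is the log2 of the processed signal minus the log2 of the array's 75th percentile, so 0 is the signal of a probe at that percentile. The 75th percentile lay between 136.5 and 300.9 signal units, the share of probes detected clearly over background was 47.70% to 55.47%, and 0 spots were saturated. All arrays were on 1 slide, KSL on row 1 and Gr on row 2, so cell type and slide row cannot be told apart. The transgene checked the labels in part: Etv2 stood at -4.37 and -4.73 in the KSL controls, where it was not detected over background, and at 0.19 and -1.24 in KSL Vav-Etv2 1 and 2. In Gr cells it stood at -4.48 in control 1, at -0.55 and -1.29 in Vav-Etv2 1 and 2, and at -0.54, a detected signal that goes against the label, on the array labelled Gr control 2. The sort marker Itgam (Mac-1) was 5.95 to 7.20 on the Gr arrays and 4.54 to 5.19 on the KSL arrays. Kit was 3.45 to 5.15 on the KSL arrays and 1.42 to 2.04 on the Gr arrays. Ly6a (Sca-1) was 2.26 to 3.65 in KSL cells and 4.48 to 6.33 in Gr cells, higher in the population not sorted for it, and Ly6g was not measured. KSL Vav-Etv2 1 stood apart from the other KSL arrays, with a correlation of 0.947 to 0.966 to them over all features, against 0.977 to 0.987 among the other 3.

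The 250 bases before the RefSeq start of a gene were available for 26 of the 32 genes, on build GRCm38.p6. The sequences of Lcn2, Retnlg, Camp and Ngp are shown because these secondary granule and mediator genes were 4 of the 6 with the largest difference between Vav-Etv2 and control KSL cells, and that of Mmp8 because its difference between cell types was among the largest in both genotypes. Each is written 5′ to 3′ on the gene's own strand, and capitals mark a match to the C/EBP-type spelling TTGCNNAA on either strand. The windows are chr2:32387740-32387989 on the minus strand (Lcn2), chr16:48872358-48872607 on the plus strand (Retnlg), chr9:109849457-109849706 on the minus strand (Camp), chr9:110419558-110419807 on the plus strand (Ngp) and chr9:7558179-7558428 on the plus strand (Mmp8).
Lcn2: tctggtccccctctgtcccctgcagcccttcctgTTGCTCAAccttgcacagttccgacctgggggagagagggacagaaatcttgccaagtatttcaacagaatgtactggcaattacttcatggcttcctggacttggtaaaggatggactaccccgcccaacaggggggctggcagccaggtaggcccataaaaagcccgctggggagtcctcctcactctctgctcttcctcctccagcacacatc
Retnlg: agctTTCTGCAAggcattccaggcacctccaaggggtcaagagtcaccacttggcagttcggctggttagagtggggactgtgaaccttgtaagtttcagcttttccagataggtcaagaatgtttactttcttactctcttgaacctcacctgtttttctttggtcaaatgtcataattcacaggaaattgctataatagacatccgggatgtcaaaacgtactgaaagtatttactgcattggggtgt
Camp: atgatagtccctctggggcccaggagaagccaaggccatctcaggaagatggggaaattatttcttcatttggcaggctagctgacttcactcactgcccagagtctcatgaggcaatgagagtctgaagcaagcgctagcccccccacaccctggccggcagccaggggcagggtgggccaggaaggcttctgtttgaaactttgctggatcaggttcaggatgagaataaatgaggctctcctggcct
Ngp: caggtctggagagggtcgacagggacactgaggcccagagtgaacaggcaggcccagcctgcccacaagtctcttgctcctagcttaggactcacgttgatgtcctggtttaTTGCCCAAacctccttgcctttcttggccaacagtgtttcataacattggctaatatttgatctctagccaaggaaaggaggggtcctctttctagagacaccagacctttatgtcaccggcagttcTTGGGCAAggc
Mmp8: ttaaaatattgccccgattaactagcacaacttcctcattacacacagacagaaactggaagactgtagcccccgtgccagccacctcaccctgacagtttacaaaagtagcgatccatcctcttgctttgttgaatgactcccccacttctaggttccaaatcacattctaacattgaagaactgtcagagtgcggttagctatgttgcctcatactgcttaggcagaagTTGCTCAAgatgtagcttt

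TTGCNNAA was found in the windows of 8 of the 26 genes (30.8%: Ltf, Lcn2, Ngp, Mmp8, Adam8, S100a9, Retnlg and Anxa1), and in 9.56% of all 32851 windows of the same length. In Ngp it lay at 138 and 11 bases before the start, in Mmp8 at 19, in Ltf at 75, in Lcn2 at 216 and in Retnlg at 246, and Camp had none. Olfm4, with the largest difference between Vav-Etv2 and control KSL cells, is not shown and had none either. The genes shown were picked by name, so the share of them with a match does not stand for the 26. The palindromic spelling TTGCGCAA was in 0 of 26 windows and 0.164% of all. A PU.1-type spelling, GAGGAAGT, was in 3 of 26 (11.5%: Mmp8, Olfm4 and S100a8) and 2.44% of all. The shorter ETS core GGAAGT, which overlaps it, was in 10 of 26 (38.5%) and 19.7% of all, and CCGGAAGT in 0 of 26 and 2.88% of all. In all, 8 spellings were searched on both strands. The other 3 were further C/EBP-type spellings: TTNCGNAA and TTGCGNAA were in 0 of 26 windows (2.04% and 0.67% of all), and TTNNGCAAT, which overlaps TTGCNNAA on the other strand, was in 2 of 26 (Ltf and Ngp) and 1.93% of all. A match is a description of these letters, and the arrays did not measure binding.

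In the paragraphs that follow, the 4 values of a cell type are always in the order control 1, control 2, Vav-Etv2 1, Vav-Etv2 2. The pattern common to most of the genes had 3 parts. Levels in Gr cells were far above those in KSL cells. Transcripts were nonetheless measurable in KSL cells, where all but Clec5a were well above background on both control arrays. KSL Vav-Etv2 1 was lower than the other 3 KSL arrays for 29 of the 32 genes, most of all for those of the secondary granules, while KSL Vav-Etv2 2 was close to the controls.

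**Figure D1:**
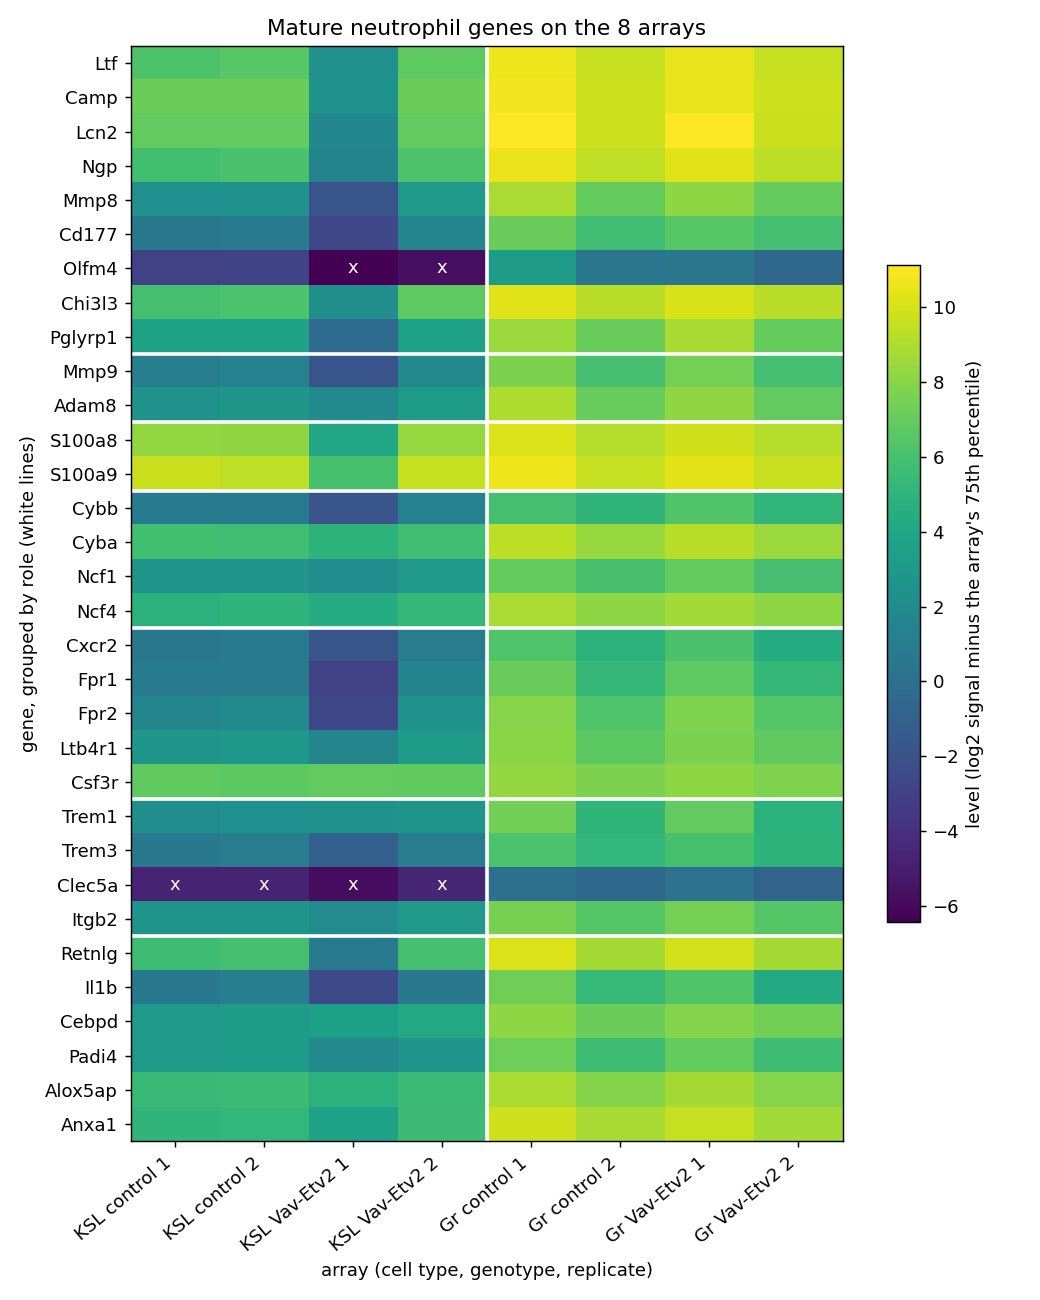
Level of each of the 32 genes (rows, grouped by role) on each of the 8 arrays (columns), as log2 signal minus the array's 75th percentile, by colour. The Gr columns are high throughout (median 6.92 to 8.21), and KSL Vav-Etv2 1 (median 1.80) is lower than the other KSL arrays (2.92 to 3.19), most visibly in the secondary granule rows.

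The 9 secondary granule genes were high in Gr cells and, Olfm4 apart, readily measured on 3 of the 4 KSL arrays. Whether the signal on the KSL arrays came from progenitors or from other cells in the sort was not tested. Ltf (the iron-binding protein lactotransferrin) stood at 6.24, 6.55, 2.43 and 6.76 in KSL cells and at 10.68, 9.56, 10.48 and 9.60 in Gr cells. Camp (the antimicrobial peptide cathelicidin) stood at 7.16, 7.21, 2.51 and 7.15 in KSL cells and at 10.80, 9.79, 10.51 and 9.78 in Gr cells. Lcn2 (lipocalin 2, which binds bacterial siderophores) stood at 6.89, 6.90, 1.74 and 6.91 in KSL cells and at 11.13, 9.81, 11.10 and 9.71 in Gr cells. For all of these, the KSL controls and KSL Vav-Etv2 2 lay close together, and KSL Vav-Etv2 1 alone was low. Ngp (neutrophilic granule protein, a cathelicidin relative) was at 5.84, 6.07, 1.5 and 6.22 in KSL cells and at 10.64, 9.44, 10.37 and 9.40 in Gr cells. Chi3l3 (now Chil3, the chitinase-like protein Ym1, whose probe may also read its close relative Chil4) was at 5.93, 6.13, 2.33 and 6.77 in KSL cells and at 10.35, 9.26, 10.07 and 9.32 in Gr cells. Pglyrp1 (a peptidoglycan recognition protein) was at 3.77, 3.78, -0.27 and 3.61 in KSL cells and at 8.52, 7.11, 8.83 and 6.96 in Gr cells. In these too KSL Vav-Etv2 1 was at the bottom, with KSL Vav-Etv2 2 above both controls for Ngp and Chi3l3 and below both for Pglyrp1.

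Mmp8 (neutrophil collagenase) was measured at 2.41, 2.61, -1.89 and 3.04 in KSL cells and at 8.89, 6.97, 8.13 and 6.97 in Gr cells. Cd177 (a surface and granule glycoprotein) was measured at 0.67, 0.77, -2.66 and 1.54 in KSL cells and at 7.14, 5.75, 6.58 and 5.85 in Gr cells. In both, KSL Vav-Etv2 2 was above the controls and KSL Vav-Etv2 1 below them. Olfm4 (olfactomedin 4, carried by a subset of neutrophils) was the granule gene with no signal well above background on either KSL Vav-Etv2 array. In KSL cells it was at -3.07 and -2.82 in the controls and at -6.44 and -5.71 in Vav-Etv2 1 and 2, values with no order between them. Both Vav-Etv2 arrays were below both controls, as for 2 other granule genes, Camp and Pglyrp1. In Gr cells Olfm4 was at 3.26 and 0.46 in the controls and at 0.52 and -0.49 in the Vav-Etv2 arrays, so control 1 was high and the groups overlapped by a small margin.

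The tertiary granule protease gene Mmp9 (gelatinase B) was at 1.07, 1.38, -1.85 and 1.83 in KSL cells and at 7.65, 5.95, 7.44 and 5.85 in Gr cells. Adam8, a membrane metalloprotease, was at 2.57, 2.85, 1.89 and 3.14 in KSL cells and at 8.96, 7.03, 8.23 and 6.89 in Gr cells. KSL Vav-Etv2 1 was lowest for both, by a smaller margin for Adam8.

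S100a8 and S100a9, which encode the calcium-binding subunits of calprotectin, were, with Csf3r, the genes that differed least between the control cell types. S100a8 was at 8.29, 8.24, 4.09 and 8.36 in KSL cells and at 10.17, 9.14, 9.86 and 9.19 in Gr cells. S100a9 was at 9.69, 9.48, 6.04 and 9.60 in KSL cells and at 10.66, 9.59, 10.40 and 9.65 in Gr cells. Gr control 2 (9.59) was below KSL control 1 (9.69) for S100a9, so this gene's control groups overlapped. Its unscaled signal was 160196, 189555, 14025 and 167022 on the KSL arrays and 220712, 230791, 202199 and 219105 on the Gr arrays.

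The oxidase genes were high in Gr cells, and 3 of the 4 varied little among the KSL arrays. Cybb (the catalytic subunit gp91phox) was at 0.78, 0.87, -1.81 and 1.28 in KSL cells and at 5.95, 5.05, 6.35 and 5.10 in Gr cells. Cyba (its membrane partner p22phox) was at 5.79, 5.73, 4.91 and 5.77 in KSL cells and at 9.36, 8.43, 9.21 and 8.52 in Gr cells. Only Cybb of these was more than 2 log2 below the controls on KSL Vav-Etv2 1. Ncf1 (the cytosolic organizer p47phox) was at 2.65, 2.66, 2.19 and 2.99 in KSL cells and at 6.98, 5.99, 6.95 and 5.97 in Gr cells. Ncf4 (p40phox) was at 4.84, 4.96, 4.43 and 5.27 in KSL cells and at 8.92, 8.16, 8.68 and 8.17 in Gr cells. Both cytosolic subunits were within 0.47 log2 of the control mean on both KSL Vav-Etv2 arrays.

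Among the receptors for chemoattractants and cytokines, Cxcr2 (the receptor for CXCL chemokines that draws neutrophils out of the marrow) was at 0.59, 0.70, -1.72 and 0.96 in KSL cells and at 6.31, 4.86, 6.06 and 4.47 in Gr cells. The formyl peptide receptor Fpr1 was at 0.71, 0.87, -2.99 and 1.41 in KSL cells and at 7.12, 5.26, 6.76 and 5.29 in Gr cells. Its neighbour Fpr2 was at 1.53, 1.91, -2.65 and 2.56 in KSL cells and at 7.91, 6.32, 7.75 and 6.46 in Gr cells. On KSL Vav-Etv2 1 both formyl peptide receptors were more than 3 log2 below the controls, and Cxcr2 more than 2. Ltb4r1 (the leukotriene B4 receptor) was at 2.86, 2.93, 1.56 and 3.24 in KSL cells and at 8.02, 6.72, 7.68 and 6.87 in Gr cells. Csf3r (the receptor for G-CSF, present from early myeloid progenitors on) was at 6.84, 6.69, 6.94 and 6.87 in KSL cells and at 8.26, 7.63, 8.15 and 7.70 in Gr cells. Csf3r was the only gene of the 32 that was not lower on KSL Vav-Etv2 1 than on KSL Vav-Etv2 2.

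Of the activating receptors, Trem1 (an amplifier of inflammatory signals) was at 2.33, 2.47, 2.58 and 2.75 in KSL cells and at 7.38, 5.06, 6.88 and 4.81 in Gr cells. Its relative Trem3 was at 0.69, 0.92, -1.05 and 0.96 in KSL cells and at 6.14, 5.16, 5.99 and 4.93 in Gr cells. Clec5a, a C-type lectin that signals through DAP12, was at -4.69, -4.73, -5.87 and -4.57 in KSL cells, none well above background, and at 0.00, -0.41, 0.14 and -0.82 in Gr cells. The neighbours Trem1 and Trem3 thus differed on KSL Vav-Etv2 1, where Trem1 was slightly above and Trem3 below both controls. Itgb2 (CD18, the beta chain of Mac-1) was at 2.62, 2.65, 2.07 and 3.05 in KSL cells and at 7.52, 6.49, 7.49 and 6.52 in Gr cells.

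In the group of mediators and regulators, Retnlg (a resistin-like secreted protein) was at 5.69, 5.92, 0.86 and 5.93 in KSL cells and at 10.23, 8.79, 9.94 and 8.77 in Gr cells. Il1b (interleukin 1 beta) was at 0.69, 1.07, -2.48 and 0.62 in KSL cells and at 7.34, 5.31, 6.39 and 4.31 in Gr cells. Cebpd, a C/EBP transcription factor, was at 2.98, 3.21, 3.49 and 4.15 in KSL cells and at 8.16, 7.20, 7.85 and 7.41 in Gr cells. Retnlg and Il1b shared the low value on KSL Vav-Etv2 1, and Cebpd was above both controls on both KSL Vav-Etv2 arrays. Padi4 (the deiminase that citrullinates histones in extracellular trap formation) was at 3.06, 3.17, 1.85 and 2.81 in KSL cells and at 7.25, 5.70, 6.99 and 5.69 in Gr cells. Alox5ap (the partner of 5-lipoxygenase in leukotriene synthesis) was at 5.41, 5.51, 4.87 and 5.51 in KSL cells and at 8.89, 7.90, 8.78 and 7.97 in Gr cells. Anxa1 (annexin A1, a ligand of formyl peptide receptors) was at 5.03, 5.19, 3.60 and 5.62 in KSL cells and at 9.84, 8.82, 9.58 and 8.71 in Gr cells. A second probe existed for 4 genes (Camp, Cyba, Padi4 and Anxa1) and gave differences of the same sign in these comparisons.

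The first comparison was between cell types. In control mice all 32 genes were higher in Gr than in KSL cells, by a median of 4.15 log2 (range 0.54 to 5.72), where the median over all 23231 features was 0.13. Of these, 24 were called higher at a limma adjusted p under 0.05 (Benjamini-Hochberg over all features), against a background of 18.5% of all features, and 31 had Gr arrays wholly above the KSL arrays (background 40.5%). By role, those called were 4 of 9 secondary granule genes, 2 of 2 tertiary granule and protease genes and 0 of 2 calprotectin genes. Also called were 4 of 4 oxidase genes, 5 of 5 chemoattractant and cytokine receptors, 4 of 4 activating receptors and integrins, and 5 of 6 mediators and regulators. Those not called were Ltf, Camp, Lcn2, Ngp, Chi3l3, S100a8, S100a9 and Retnlg. Leaving out either of the KSL Vav-Etv2 arrays gained the calls of Ltf, Camp, Lcn2, Ngp, Chi3l3 and Retnlg and lost that of Csf3r. Fewer of all features were called there. Fewer of the 32 genes were called without KSL control 1, KSL control 2 or Gr control 1, settings in which fewer of all features were called too.

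The 6 largest differences between control cell types were those of Cd177, the proteases Mmp9 and Mmp8, Il1b and the formyl peptide receptors. Cd177 was 52.7-fold higher in Gr than in KSL controls (log2 difference 5.72, SE 1.25, limma adjusted p = 0.0157). Mmp9 was 47.8-fold higher (5.58, SE 1.21, limma adjusted p = 0.0157), and Il1b 43.6-fold higher (5.45, SE 1.19, limma adjusted p = 0.0157). In all of these the lowest Gr control was more than 4 log2 above the highest KSL control. Mmp8 was 42.8-fold higher (5.42, SE 1.49, limma adjusted p = 0.0323). Fpr1 and Fpr2 were both 42.1-fold higher (5.40 each, SE 1.38 and 1.54, limma adjusted p = 0.026 and 0.036). Clec5a, undetected in KSL controls, was at least 15.5-fold higher, a bound set by the lowest probe well above background on each array. Leaving out KSL control 1, KSL control 2 or Gr control 1 ended the calls of the 6 genes named before it (limma adjusted p 0.0718 to 0.164). Fpr2 also lost its call without Gr control 2 or without either Gr Vav-Etv2 array.

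In Vav-Etv2 mice the same contrast had a median of 5.23 log2 (range 1.02 to 7.15; all features 0.10). There, 29 of the 32 genes were called higher (background 13.8%), and all 32 had Gr arrays above both KSL arrays (background 37.6%). All 9 secondary granule genes were called higher. Fpr2 was 142-fold higher in Gr cells (7.15, SE 1.54, limma adjusted p = 0.0192), Mmp8 125-fold (6.97, SE 1.49, limma adjusted p = 0.0187) and Fpr1 113-fold (6.82, SE 1.38, limma adjusted p = 0.0157). The granule gene Cd177 was 109-fold higher (6.77, SE 1.25, limma adjusted p = 0.0114), Mmp9 101-fold (6.65, SE 1.21, limma adjusted p = 0.0111) and Il1b 77.8-fold (6.28, SE 1.19, limma adjusted p = 0.0125). Olfm4 and Clec5a were at least 21.6-fold and 16.9-fold higher, since neither KSL array was well above background. Those not called were S100a8, S100a9 and Csf3r (limma adjusted p = 0.0929, 0.163 and 0.0656), named after their values were seen. Without KSL Vav-Etv2 1 the median was 3.60. Fewer genes were called without Gr Vav-Etv2 1, where fewer of all features were called too. The sizes for single genes turned on the KSL array left out: without KSL Vav-Etv2 1 the difference was 4.55 log2 for Fpr2 and 4.50 for Mmp8, and when replicate 2 was the one omitted it was 9.75 and 9.43. Across these 6 genes, the differences ranged from 4.50 to 9.75 when 1 array was left out. Without Gr Vav-Etv2 1 none of the 6 was called (limma adjusted p 0.0665 to 0.103), nor was Il1b without KSL Vav-Etv2 1 (limma adjusted p = 0.0507).

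**Figure D2:**
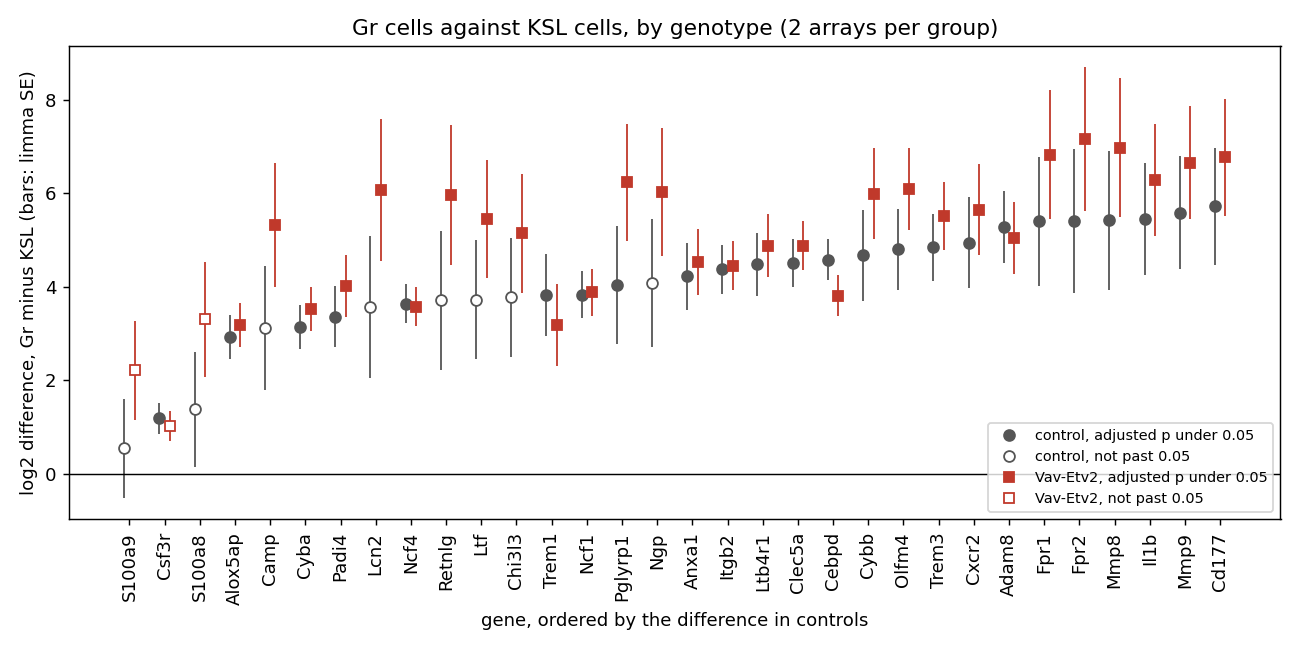
Log2 difference between Gr and KSL cells for each gene (mean of 2 arrays minus mean of 2 arrays, with limma's SE as bars), in control and in Vav-Etv2 mice. Filled symbols passed an adjusted p of 0.05 (24 in controls, 29 in Vav-Etv2), and all differences are above 0.

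The next comparison asked whether the transgene went with a change of these genes in progenitors. In KSL cells 29 of the 32 genes were lower in Vav-Etv2 than in control mice and 3 were higher (Csf3r, Trem1 and Cebpd), with a median difference of -1.16 log2 (all features 0.00). Of the 32, 0 were called by limma (background 0.0172% of features in either direction), and 1, Olfm4, had an unadjusted p under 0.05. The groups did not overlap for 5 lower genes (Camp, Olfm4, Pglyrp1, Il1b and Padi4; background 25.4%) and for the 3 higher ones (background 26.2%), so neither share stood above the background.

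Olfm4, not well above background on either Vav-Etv2 array, has only a bound, at least 2.78-fold lower. Its fitted difference of -3.13 (SE 0.87, limma adjusted p = 0.412) became -1.47 with low signals raised to the floor and -0.50 with normexp background correction. Lcn2 differed by -2.57 (SE 1.52, limma adjusted p = 0.882), Retnlg by -2.41 (SE 1.49, limma adjusted p = 0.902) and Camp by -2.36 (SE 1.33, limma adjusted p = 0.862). Pglyrp1 differed by -2.10 (SE 1.26, limma adjusted p = 0.887), and Ngp by -2.10 (SE 1.37, limma adjusted p = 0.924). The differences of these measured genes rested on 1 array. Without KSL Vav-Etv2 1, Lcn2 differed by 0.02, Retnlg by 0.12, Camp by -0.04, Pglyrp1 by -0.16 and Ngp by 0.26, and the median over the 32 genes was 0.32.

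Taken array by array, with no test, KSL Vav-Etv2 1 lay between -5.15 (Lcn2) and 0.39 (Cebpd) from the control mean, with a median of -2.86, and 18 of the 32 genes were more than 2 log2 below it, against 3.85% of all features. KSL Vav-Etv2 2 lay between -2.76 (Olfm4, not well above background) and 1.05 (Cebpd) from the control mean, with a median of 0.32. On it 30 genes were within 1 log2. From KSL control 1 to KSL control 2 the differences were -0.21 to 0.38. The role values that follow are for KSL Vav-Etv2 1. All 9 secondary granule genes read more than 2 log2 below the controls on that array. Olfm4, counted among the 9 and the 18, was not well above background there either, so the size of its drop is not known. By role, the median on KSL Vav-Etv2 1 was -4.04 for the secondary granule genes and -3.86 for the calprotectin genes. The medians were -1.95 for the tertiary granule and protease genes (Mmp9 -3.08, Adam8 -0.82), -2.36 for the chemoattractant and cytokine receptors, -1.39 for the mediators and regulators, -0.86 for the activating receptors and integrins, and -0.66 for the oxidase genes. Between the replicates, the signal on KSL Vav-Etv2 2 was 0.951 to 36.9 times that on KSL Vav-Etv2 1 (median 7.44). In such bulk samples, fewer cells of a type and less RNA per cell cannot be told apart.

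**Figure D3:**
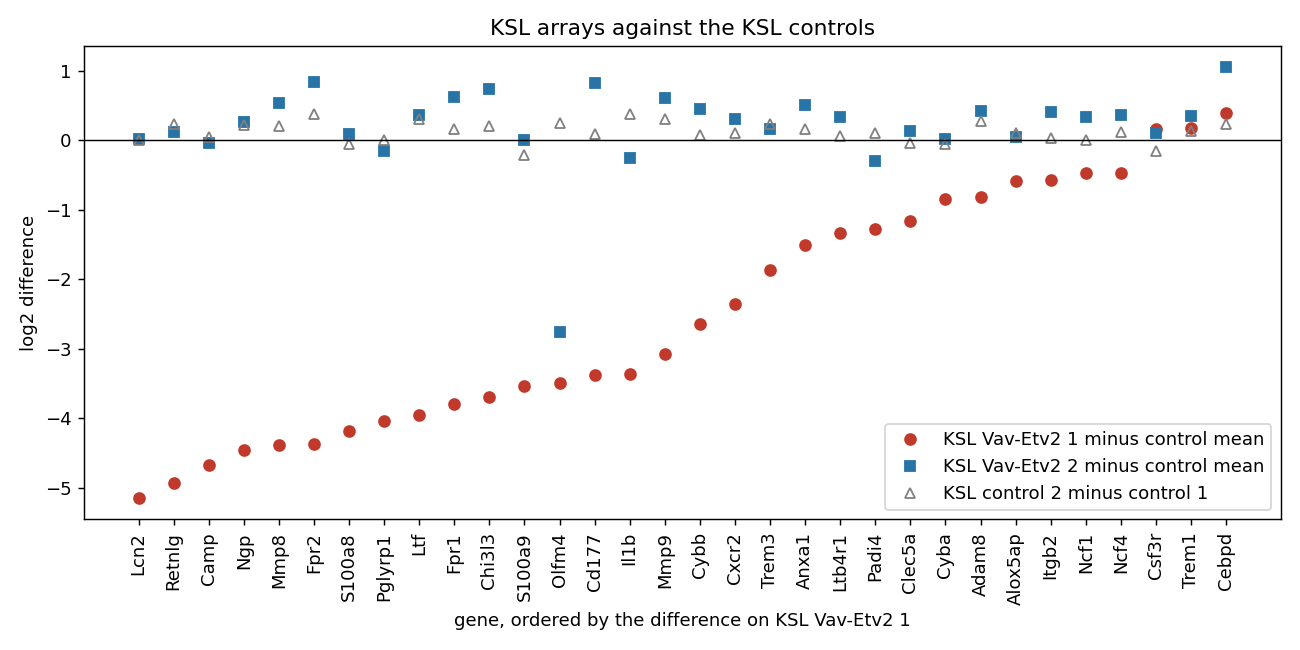
Log2 difference from the mean of the KSL controls for KSL Vav-Etv2 1 and KSL Vav-Etv2 2, with the difference between the control arrays, for each of the 32 genes. KSL Vav-Etv2 1 runs from -5.15 to 0.39, whereas KSL Vav-Etv2 2 lies within 1 log2 for 30 genes and the controls within 0.38.

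A further 32 genes of the neutrophil pathway, other granule, oxidase, adhesion and signalling genes listed apart from these, were looked up, and 31 were measured. In controls 30 of 31 were called higher in Gr cells (background 18.5%) and in Vav-Etv2 mice 31 of 31 (background 13.8%). The median differences were 4.80 and 5.22. In KSL cells 0 of 31 were called between Vav-Etv2 and control by limma (1 with an unadjusted p under 0.05), with a median of -0.34. On KSL Vav-Etv2 1 their median was -1.15 from the control mean, with 10 of 31 more than 2 log2 below (3.85% of all features). Cebpe, the C/EBP factor required for secondary granule formation, was at 3.39, 3.77, 0.43 and 3.79 in KSL cells. The acute phase gene Hp was at 5.01, 5.09, 2.31 and 5.30 there, and Lrg1, a secreted leucine-rich glycoprotein, at 2.29, 2.49, -0.16 and 3.30. These genes, named after their values were seen, were thus low on the same array. Alox5, the lipoxygenase that starts leukotriene synthesis, was at 1.85, 2.23, 1.95 and 2.45, without that gap.

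Lists of other cell types were read on the same array. The 10 primary granule genes and early granulocyte factors had a median of 0.03 from the control mean on KSL Vav-Etv2 1, with 1 of 10 (Elane, neutrophil elastase, at 4.78, 4.76, 2.70 and 4.71) more than 2 log2 below, and Mpo, myeloperoxidase, was at 8.68, 8.63, 8.70 and 8.89. The 10 mast cell, basophil and eosinophil genes had a median of -1.13. More than 2 log2 below were 3 of 10, among them Prg2 (2.35, 2.41, -3.67 and 3.85) and Prss34 (3.48, 3.56, -0.39 and 3.52). More than 2 log2 above was 1 of 10, Il5ra (-2.23, -2.13, 0.43 and -2.21). The log2 summed level of the 10 genes was 5.58, 5.66, 4.08 and 5.93, with 9 of 10 well above background on each KSL array. Monocyte and macrophage genes had a median of 0.09 (13 genes, summed level 7.81, 7.89, 7.40 and 7.91). Of these 1, Ccr2, was more than 2 log2 above (-0.07, 0.2, 3.66 and 3.14). B lineage genes were higher on both Vav-Etv2 arrays, by medians of 2.17 and 2.95 (10 genes, summed level 5.30, 5.34, 6.89 and 7.27). T and NK cell genes had a median of -0.74 (10 genes, 5.73, 5.76, 5.50 and 5.74). Erythroid genes had -1.32 (9 genes, 5.64, 5.55, 4.47 and 5.03) and stem and progenitor genes -1.01 (12 genes, 8.41, 8.52, 8.03 and 8.13). More than 2 log2 below on KSL Vav-Etv2 1 were 3 of 10, 3 of 9 and 3 of 12 genes of these lists. That count was 0 for the monocyte and macrophage list and 0 for the B lineage list. Well above background on that array were 7 T and NK cell, 8 erythroid and 11 stem and progenitor genes. The 32 mature neutrophil genes themselves had summed levels of 10.96, 10.92, 8.50 and 11.06. The part of any of these in the low values of KSL Vav-Etv2 1 was not tested.

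**Figure D4:**
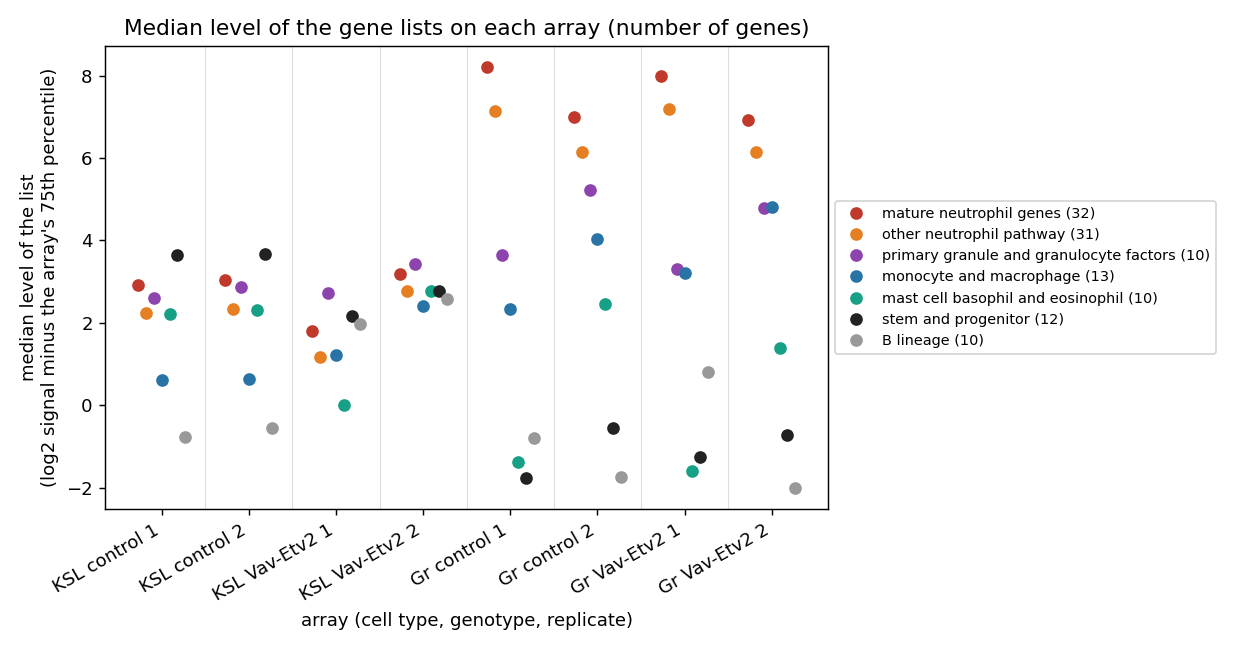
Median level of each gene list on each of the 8 arrays (log2 signal minus the array's 75th percentile), with the number of genes per list. In KSL cells the mature neutrophil genes are at 2.92, 3.05, 1.80 and 3.19, and the primary granule list at 2.61, 2.88, 2.73 and 3.44.

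In granulocytes no gene was called between the genotypes. Of the 32, 29 had a lower and 3 a higher mean in Vav-Etv2 mice, with a median difference of -0.13 log2 (all features -0.01). By limma 0 were called (background 0.00861%), 0 had an unadjusted p under 0.05, and the groups overlapped for all 32 (non-overlapping background 5.83% higher and 5.79% lower). The largest difference was that of Olfm4, -1.84 (SE 0.87, limma adjusted p = 1). Il1b differed by -0.98 (SE 1.19), Adam8 by -0.43 (SE 0.77), Mmp8 by -0.38 (SE 1.49), Trem1 by -0.37 (SE 0.88) and Cxcr2 by -0.32 (SE 0.97), each with a limma adjusted p of 1. The SE is drawn from all 4 groups, the KSL arrays among them, and at 2 arrays a group leaves differences of that order undetectable. Without the array labelled Gr control 2, the median over the 32 genes was -0.69, while leaving out Gr control 1 or Gr Vav-Etv2 2 gave 0.47 or 0.33.

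On the scaled levels, the Gr arrays were separated by replicate number more than by genotype. All 32 genes were lower on replicate 2 than on replicate 1 in both genotypes, with a median of replicate 2 minus replicate 1 of -1.16 log2 in controls (-2.80 to -0.41) and -0.97 in Vav-Etv2 mice (-2.08 to -0.44). The log2 of the 75th percentile was higher on replicate 2 by 1.14 and 0.87, and in unscaled signal the median gap was -0.02 and -0.10, with differences in both directions (-1.66 to 0.73 in controls, -1.21 to 0.43 in Vav-Etv2). Within replicate 1, Vav-Etv2 minus control had a median of -0.26 over the 32 genes (-2.74 for Olfm4 to 0.40 for Cybb), and within replicate 2 a median of -0.01 (-1.0 for Il1b to 0.21). Il1b and Olfm4 were lower in Vav-Etv2 in both, at -0.95 and -1.0 for Il1b and -2.74 and -0.95 for Olfm4. In replicate 2, however, Etv2 stood at -0.54 on the array labelled control and at -1.29 on Vav-Etv2 2. Whether the replicate 2 difference is one of genotype therefore cannot be told. The replicate numbers of the Gr arrays also split a pair of sex-linked genes. Xist, made from the inactive X chromosome, was at 0.27 and 0.35 on replicate 1 and at -7.10 and -6.82 on replicate 2. The Y-linked Ddx3y was at -4.05 and -5.81 against 1.39 and 1.36. On the KSL arrays Xist was at 2.12 to 2.69 and Ddx3y at -6.40 to -6.03. Only Gr replicate 2 thus had the male pattern, so sex and cell type are partly mixed. From control 1 to control 2 the 31 other neutrophil pathway genes had a median difference of -1.19 and were all lower, while the 10 primary granule genes had a median of 1.39, with 1 lower, and the 10 mast cell, basophil and eosinophil genes 3.45, with 1 lower. Their part in the replicate gap was not tested.

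**Figure D5:**
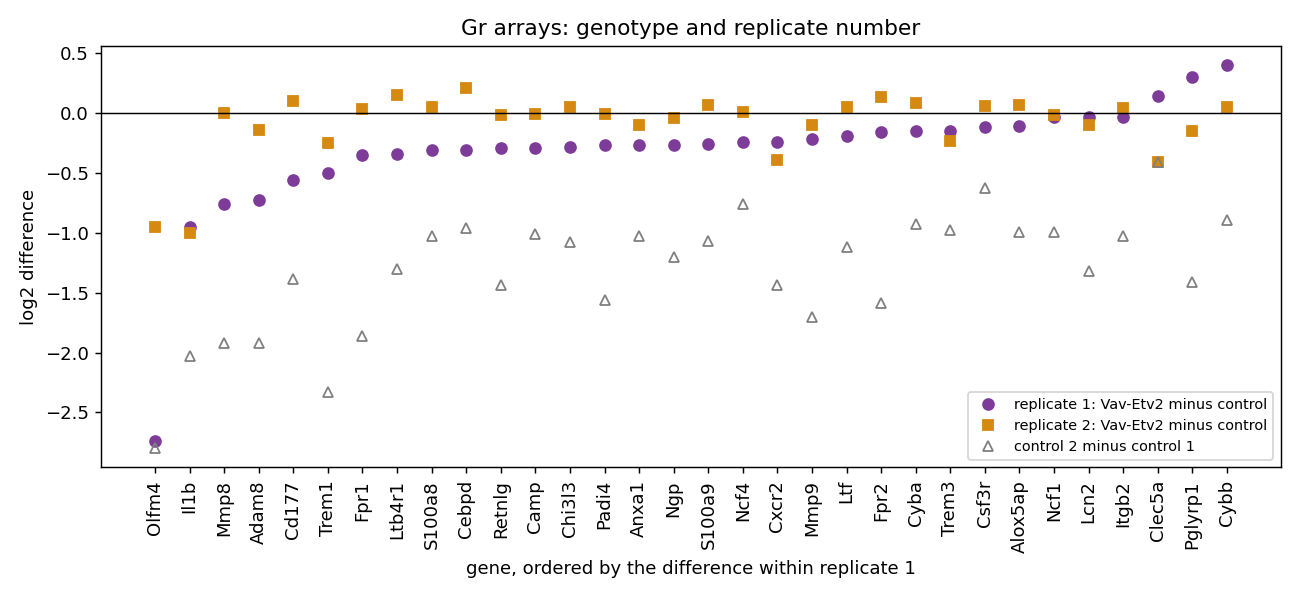
Log2 difference between Gr arrays for each of the 32 genes: Vav-Etv2 minus control within replicate 1 and within replicate 2, and control 2 minus control 1. The within-replicate medians are -0.26 and -0.01, and the control replicates differ by -2.80 to -0.41. Etv2 was detected on the array labelled control 2, against its label.

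Whether the transgene's difference was unlike in granulocytes and progenitors was tested as an interaction. The Gr difference minus the KSL difference was positive for 27 of the 32 genes, with a median of 0.94 (all features 0.00), and 0 were called by limma (background 0.0043%), 0 with an unadjusted p under 0.05. It was 2.50 for Lcn2 (SE 2.15), 2.25 for Retnlg (SE 2.11), 2.20 for Camp (SE 1.88), 2.18 for Pglyrp1 (SE 1.78), 1.94 for Ngp (SE 1.94) and 1.91 for S100a8 (SE 1.74), each with a limma adjusted p of 1. Without KSL Vav-Etv2 1 the median was -0.41, and Lcn2, Retnlg, Camp, Ngp and S100a8 turned negative.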

How the data were processed

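Total RNA of 8 sorted samples was labelled with Cy3 and hybridised to 1-colour Agilent arrays. Per the file headers, the deposited files hold fluorescence intensity read out by Agilent Feature Extraction, version 10.7.3.1 (the submitters' processing notes give 10.7), and the processed signal is background-subtracted and not normalised between arrays. Raw intensity columns, also deposited, served 1 alternative. Other deposited values are quality marks per spot (control, outlier, saturated, above background). The value table the authors deposited is in log2 units and, checked against the signals, was scaled and centred on each probe's median within a cell type (99.8% of it lay within 0.01 of values recomputed here), so it served only comparisons within a cell type. Probe names follow the files and RefSeq annotation. Outlier and control spots were left out, spots of a probe averaged, signals put on the log2 scale, and the 75th percentile subtracted. The probe with the highest mean stood for its gene, also where its group was not above background.

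In limma 3.58.1 (R 4.3.3), a linear model with 4 group means took all 8 arrays (files were read with the data.table package, version 1.17.8), with 4 residual and 2.77 prior degrees of freedom, and p-values were adjusted by Benjamini-Hochberg over 23231 features. Called means an adjusted p under 0.05. Bounds ("at least") use the lowest probe level on each array among probes with at least 50% of their spots well above background, averaged over all spots of the probe. The script was tested on simulated data. The number of arrays limits the precision. The 32 genes and the 8 gene lists beside them were chosen with earlier results of these data known, so no p is given for a list. Every gene is given by level on each array, and difference, SE and adjusted p for the 6 largest differences per comparison. Alternatives covered background correction, scaling, dim-signal floor, filter, probe choice, the samples fitted, the replicate number as a block, each array left out, and, chosen after seeing the data, no scaling between arrays and the omission of both KSL Vav-Etv2 1 and Gr control 2.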

Additional observations from a re-analysis of the deposited data

How the results depend on the processing

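The direction in which the Gr cells exceeded the KSL cells was the same for all measured genes under every alternative run. Apart from settings that left out arrays, the number called was 21 to 27 in controls and 27 to 30 in Vav-Etv2 mice, and 0 in the comparisons of genotype. Leaving out 1 array at a time gave 11 to 29 genes called in controls, with 11 without KSL control 1, 11 without KSL control 2 and 12 without Gr control 1, and 14 to 30 in Vav-Etv2 mice, with 14 without Gr Vav-Etv2 1. A group of 1 array was assumed to vary like the others. The genes called in every setting that measured them numbered 11 in controls and 14 in Vav-Etv2 mice. The number of genes called stayed at 0 for the KSL, Gr and interaction comparisons whichever array was left out.

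Leaving out 1 array at a time, the median over the 32 genes ranged from -2.86 to 0.32 for the KSL difference, -0.69 to 0.47 for Gr, -0.41 to 2.22 for the interaction, 3.45 to 4.74 for the control cell types and 3.60 to 6.49 for the Vav-Etv2 cell types. With normexp background correction the KSL median was -0.75 and the interaction median 0.51. The KSL difference ranged from -5.15 to 0.02 for Lcn2, -4.94 to 0.12 for Retnlg and -4.46 to 0.26 for Ngp. The Gr difference ranged from -2.02 to 0.06 for Il1b, -1.40 to 0.53 for Adam8, -1.34 to 0.58 for Mmp8, -1.54 to 0.79 for Trem1 and -1.11 to 0.48 for Cxcr2. The interaction ranged from -0.08 to 5.09 for Lcn2, -0.28 to 4.78 for Retnlg, -0.12 to 4.52 for Camp, -0.42 to 4.30 for Ngp and -0.22 to 4.05 for S100a8. Without KSL Vav-Etv2 1 and the array labelled Gr control 2 together, all 32 genes were still higher in Gr than in KSL controls. There the KSL median was 0.32 (Lcn2 0.02, Retnlg 0.12, Ngp 0.26), the Vav-Etv2 cell type median 3.60, and the interaction median -0.96 (Lcn2 -0.74, Retnlg -1.0, Camp -0.62, Pglyrp1 -0.46, Ngp -1.02, S100a8 -0.74). The causes were not tested beyond the arrays left out.

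With the replicate number as a block, 23 genes were called between control cell types, 30 between Vav-Etv2 cell types and 0 in the other comparisons. Of all 23231 features, 9385 and 6843 were then called between the cell types in either direction, against 8069 and 5634 without the block. The deviations of same-numbered arrays correlated at 0.0681 in KSL and 0.658 in Gr cells, and nothing in the labels ties the numbers to animals or days, so they are not taken as pairs.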
